A study of Mus musculus with 15 samples.

Results

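YAP (Yap1) and TAZ (Wwtr1), the 4 TEAD transcription factors they bind and 4 classical target genes were followed in cultured mouse chondrocytes with reduced tankyrase activity. These 10 genes were picked by name, with earlier results of these data known, from the 24134 gene identifiers listed in each count table: the coactivators Yap1 and Wwtr1, the TEAD genes Tead1, Tead2, Tead3 and Tead4, the secreted matricellular proteins Ccn1 (also called Cyr61) and Ccn2 (also called Ctgf), the nuclear ankyrin-repeat protein Ankrd1, and Lats2, a kinase that restrains YAP and TAZ and is itself induced by them. All 10 passed the filter on low counts in every comparison.

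YAP and TAZ carry no DNA-binding domain and reach their target genes through TEAD factors. Kinases of the Hippo pathway (LATS1 and LATS2, activated by MST kinases with SAV1 and MOB1) phosphorylate YAP and TAZ, which keeps them in the cytoplasm or marks them for degradation, and angiomotins tether them outside the nucleus. Tankyrases are poly(ADP-ribose) polymerases that mark angiomotins and other partners for degradation by way of the ubiquitin ligase RNF146, and in chondrocytes YAP and TAZ are known to respond to cell shape and matrix stiffness. Transcripts only were measured here, not protein amount, phosphorylation or location.

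The cells were primary articular chondrocytes of strain ICR, taken without passage from the femoral condyles and tibial plateaus of mice a few days old and grown in medium with fetal bovine serum. One set of 9 libraries held cells given DMSO, XAV939 at 10 μM or IWR-1 at 10 μM for 108 h, and a second set of 6 held cells transfected with control siRNA (siCtrl) or with siRNAs against Tnks and Tnks2 together (siTnks/2), for a time not given in the sources used here. XAV939 and IWR-1 are small-molecule inhibitors of both tankyrases. Each group had 3 biological replicates, and whether cells of several mice were pooled within a replicate is not given in the sources used here. The comparisons ask how the YAP/TAZ programme stood when tankyrase was depleted or inhibited.

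Total counts ran from 26857070 to 36615194 per library. Levels are given in CPM, read counts brought to a common library size by trimmed-mean scaling within each set, so levels are compared only within a set, and a gene is called at a Benjamini-Hochberg adjusted p under 0.05 over all genes tested by edgeR's quasi-likelihood test. In the knockdown, Tnks was at 69.0, 58.4 and 70.1 CPM in siCtrl and 19.5, 12.7 and 24.0 CPM in siTnks/2 (log2 fold change -1.81, SE 0.22, adjusted p = 0.00569). Tnks2 was at 118, 120 and 115 CPM against 58.2, 44.9 and 61.2 CPM (log2 fold change -1.10, SE 0.11, adjusted p = 0.00384). Both targeted genes were therefore lower in every siTnks/2 library. Under the inhibitors Tnks2 fell by 0.41 on the log2 scale with XAV939 (SE 0.12, adjusted p = 0.0394) and was at -0.27 with IWR-1 (adjusted p = 0.105). Tnks was at 26.2, 20.02 and 64.1 CPM in DMSO, replicate 3 standing apart. Its log2 fold change was -0.72 with XAV939 (SE 0.42, adjusted p = 0.263) and -0.19 with IWR-1 (SE 0.42, adjusted p = 0.754), and both groups overlapped DMSO.

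Marker genes of chondrocytes were abundant in all libraries, with the 8 listed markers summing to 25676 to 34709 CPM in DMSO, 35827 to 54143 in XAV939, 85335 to 108414 in IWR-1, 79113 to 107622 in siCtrl and 114389 to 190225 in siTnks/2. Of these 8, 3 rose with knockdown (Acan, Comp and Col11a2), 4 with XAV939 (those and Hapln1) and 8 with IWR-1. Over all genes 10.4%, 7.57% and 16.2% were called higher in these comparisons, and 7.61%, 9.85% and 20.2% lower. The 6 fibroblast markers summed to 5687 to 6632 CPM in DMSO and to 2457 to 3238 with XAV939 and 1951 to 3206 with IWR-1, with Pdgfra, Col1a1 and Dpt called lower and Postn called higher under each inhibitor. In the knockdown set that list ran from 1924 to 3775 CPM in siCtrl and from 889 to 3042 in siTnks/2, with Postn alone called. The 4 smooth muscle and pericyte markers summed to 696 to 1090 CPM in siCtrl and 186 to 426 in siTnks/2, where Acta2 and Cnn1, both contractile genes known to respond to actin signalling, were called lower, whereas Acta2 was called higher with IWR-1. Of 5 leukocyte markers, 3 tested in the inhibitor set, Cd68 and Csf1r were lower with IWR-1. Of 8 skeletal muscle markers, 3 tested there, Tnnt3 was higher with IWR-1. Of 4 osteoblast markers, 3 tested there, Bglap and Sp7 were higher with each inhibitor. With knockdown 0 of the 4 were called. Bglap was at a log2 fold change of 2.23 (adjusted p = 0.0589) and Sp7 at 0.49 (adjusted p = 0.0615), each with all treated libraries above all controls, while Ibsp and Dmp1 overlapped. The osteoblast list summed to 59.3 to 70.9 CPM in siCtrl and 76.1 to 131 in siTnks/2, and its sums overlapped in the inhibitor set. None of 5 endothelial markers passed the filter in a comparison with a control, and their sum stayed at or under 0.888 CPM except in siTnks/2 replicate 2, at 7.74 CPM. No marker was at 0 in all 15 libraries, and Tie1 was at 0 in all libraries of 4 groups. In bulk RNA, fewer cells of a type and less RNA per cell cannot be told apart, and the part of these shifts in the results below was not tested.

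Positions are those of GENCODE M21 on build GRCm38, the mm10 assembly named for the files. Yap1 is at chr9:7931999-8004596 on the minus strand, Wwtr1 at chr3:57455649-57575910 (minus), Tead1 at chr7:112679318-112906807 (plus), Tead2 at chr7:45215753-45233644 (plus), Tead3 at chr17:28331671-28350817 (minus) and Tead4 at chr6:128224288-128300823 (minus). Among the target genes, Ccn1 is at chr3:145646976-145649981 (minus), Ccn2 at chr10:24595442-24598683 (plus), Ankrd1 at chr19:36111961-36120099 (minus) and Lats2 at chr14:57689662-57758388 (minus). Tead2 overlaps the protein-coding gene Cd37 and Lats2 overlaps Gm49361, so their counts may hold or lack reads of the overlap.

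TEAD factors bind the letters CATTCC, or GGAATG on the other strand, and the sequence just upstream of each start was read for this motif because the members are TEAD genes and TEAD targets. RefSeq windows (GRCm38.p6, 250 bases before the annotated start) were at hand for 7 of the 10 genes, in 11 windows because Wwtr1, Tead3 and Lats2 have several starts. The motif was found on either strand in 7 of these 11 windows, against 12.6% of 32851 windows of the same length across the genome. The 11 windows are not independent, since the 2 of Wwtr1 overlap and share 1 site, and those of the first and second Tead3 starts overlap outside their sites. The matches came from 5 of the 7 genes. Since the genes were picked as TEAD genes and TEAD targets, the comparison is a description and no test of enrichment. The AP-1 motif TGANTCA was in 0 of 11 windows and in 6.75% of all windows. The 30 bases around each distinct site or pair are given here in the direction of the gene, with the motif in capitals. The pair at the second Tead3 start shares 1 stretch, centred on the site further upstream. These genes are shown because Ccn1, Ankrd1 and Tead3 are the members called against every control below and Yap1 and Wwtr1 encode the coactivators.
Ccn1, chr3:145650071-145650100, minus strand: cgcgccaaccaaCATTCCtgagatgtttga
Ankrd1 distal, chr19:36120037-36120066, minus strand: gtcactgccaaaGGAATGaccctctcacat
Ankrd1 proximal, chr19:36119950-36119979, minus strand: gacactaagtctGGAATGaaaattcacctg
Tead3 first start, chr17:28350970-28350999, minus strand: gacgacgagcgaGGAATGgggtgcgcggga
Tead3 second start, chr17:28350706-28350735, minus strand: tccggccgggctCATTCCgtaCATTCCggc
Yap1, chr9:8004720-8004749, minus strand: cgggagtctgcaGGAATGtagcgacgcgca
Wwtr1, chr3:57576029-57576058, minus strand: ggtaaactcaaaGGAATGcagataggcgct

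The site of Ccn1 lay 103 to 98 bases before the start, and those of Ankrd1 210 to 205 and 123 to 118 bases before the RefSeq start. At the second start of Tead3 a pair of sites lay 123 to 118 and 114 to 109 bases upstream. No match was found in the windows of Tead2 and Lats2 or at the third Tead3 start. The window of Ccn1 is shown whole, at chr3:145649986-145650235, minus strand.
Ccn1 upstream window: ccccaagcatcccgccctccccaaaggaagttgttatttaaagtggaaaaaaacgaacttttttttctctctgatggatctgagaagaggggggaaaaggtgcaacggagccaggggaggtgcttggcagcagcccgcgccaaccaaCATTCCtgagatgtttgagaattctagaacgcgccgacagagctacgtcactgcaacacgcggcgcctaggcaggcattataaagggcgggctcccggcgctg

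Ccn1, a matricellular protein encoded by a direct target of YAP, fell in all 3 comparisons with a control. It was at 505, 823 and 511 CPM in siCtrl and 245, 209 and 258 CPM in siTnks/2. The lowest siCtrl library was above the highest siTnks/2 library, and the level went to 0.387 of the control (log2 change -1.37, SE 0.20, adjusted p = 0.00898). In the inhibitor set Ccn1 was at 279, 249 and 201 CPM in DMSO, 71.2, 73.4 and 61.3 CPM under XAV939, and 124, 109 and 111 CPM under IWR-1. The 3 groups did not overlap, with DMSO highest and XAV939 lowest. The log2 fold change was -1.82 with XAV939 (SE 0.13, adjusted p = 3.51e-05) and -1.08 with IWR-1 (SE 0.13, adjusted p = 0.00011). Ccn1 kept its call in these 3 comparisons under every alternative run and without any single library.

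Ccn2, a matrix-associated growth regulator highly expressed in cartilage, fell with XAV939. It was at 1346, 1657 and 1082 CPM in siCtrl and 983, 1062 and 846 CPM in siTnks/2, where all treated libraries were below all controls and the log2 change was -0.50 (SE 0.17, adjusted p = 0.0783). The call on knockdown turned with the fit: a replicate block gave -0.48 (adjusted p = 0.00846), and DESeq2 gave -0.50 (adjusted p = 0.0188). In DMSO Ccn2 was at 289, 431 and 408 CPM, with XAV939 at 124, 218 and 192 CPM, and with IWR-1 at 301, 281 and 343 CPM. Only the XAV939 libraries stood apart from DMSO, by a log2 change of -1.08 (SE 0.21, adjusted p = 0.00581), while IWR-1 gave -0.29 (95% interval -0.74 to 0.17, adjusted p = 0.316).

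Ankrd1, a cardiac and muscle ankyrin-repeat protein widely used as a read-out of YAP activity, was scarce here and had the largest fold changes of the 10 genes. Its raw counts were 38, 79 and 102 in siCtrl and 17, 11 and 30 in siTnks/2. In the inhibitor set they were 53, 52 and 65 in DMSO, 3, 2 and 6 with XAV939, and 10, 6 and 5 with IWR-1. Every treated library was below every control library of its set. The log2 fold change was -1.77 for siTnks/2 (SE 0.45, adjusted p = 0.0375), -3.35 with XAV939 (SE 0.31, adjusted p = 0.000116) and -2.72 with IWR-1 (SE 0.29, adjusted p = 5.17e-05). Summed over replicates and scaled for depth, the ratio of treated to control counts was 0.278 (exact 95% interval 0.204 to 0.373) for siTnks/2, 0.0666 (0.0326 to 0.122) with XAV939 and 0.122 (0.0737 to 0.193) with IWR-1, intervals that cover counting error only. The knockdown call was lost without siCtrl replicate 2 (-1.61, adjusted p = 0.105), siCtrl replicate 3 (-1.53, adjusted p = 0.115), siTnks/2 replicate 1 (-1.70, adjusted p = 0.113) or siTnks/2 replicate 2 (-1.53, adjusted p = 0.0543).

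**Figure D1:**
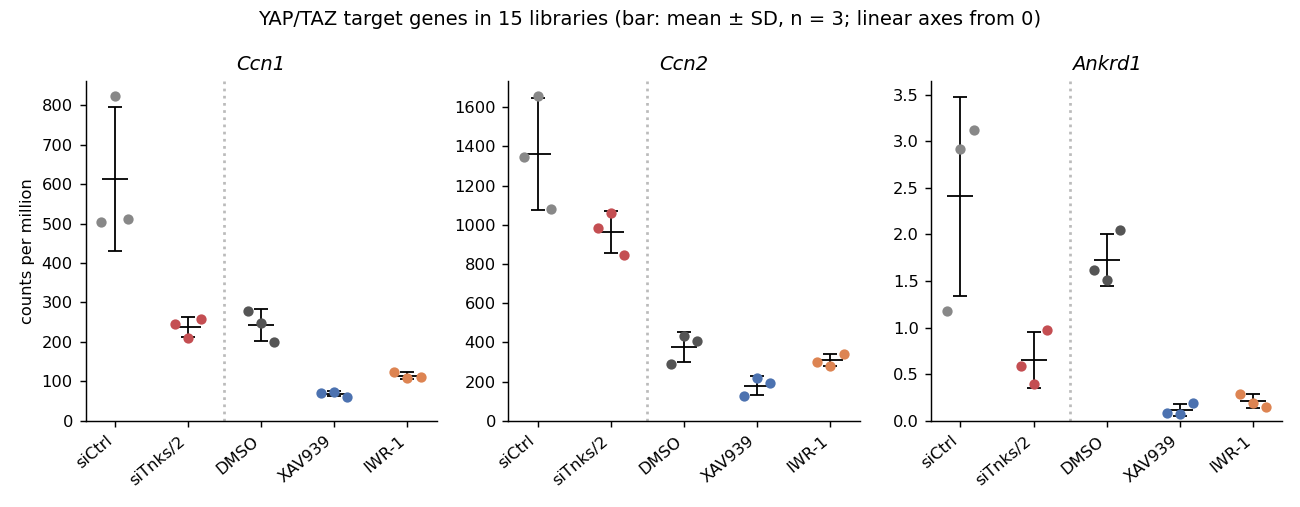
Level of Ccn1, Ccn2 and Ankrd1 in CPM (vertical axes, linear from 0) in each of 15 libraries, grouped by treatment, with 1 point per library and bars for mean ± SD (n = 3). The siRNA set is left of the dotted line and the inhibitor set right of it. Ccn1 sits at 61.3 to 73.4 CPM under XAV939 against 201 to 279 in DMSO, and Ccn2 with IWR-1 lies among the DMSO points.

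Lats2, the kinase that both restrains YAP and TAZ and is induced by them as feedback, fell with XAV939. It was at 120, 128 and 124 CPM in siCtrl and 105, 73.4 and 113 CPM in siTnks/2, replicate 2 being the lowest. It was at 85.9, 74.9 and 105 CPM in DMSO, 48.7, 55.1 and 62.4 CPM under XAV939, and 62.5, 65.4 and 77.0 CPM under IWR-1. The groups separated with knockdown and XAV939 and overlapped with IWR-1. The log2 fold change was -0.67 with XAV939 (SE 0.14, adjusted p = 0.00944), -0.35 with knockdown (SE 0.15, adjusted p = 0.153) and -0.37 with IWR-1 (SE 0.14, adjusted p = 0.0652). With the replicate block, IWR-1 gave -0.37 (adjusted p = 0.00582), and Lats2 was also called with IWR-1 without DMSO replicate 2 (-0.48, adjusted p = 0.0285) or IWR-1 replicate 3 (-0.48, adjusted p = 0.0465).

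Of the coactivator transcripts, Yap1 fell with IWR-1 and Wwtr1 with XAV939. Yap1 was at 120, 126 and 121 CPM in siCtrl and 128, 126 and 125 CPM in siTnks/2, a log2 fold change of 0.05 (95% interval -0.07 to 0.17, adjusted p = 0.527). It was at 150, 149 and 160 CPM in DMSO, 131, 150 and 135 CPM under XAV939, and 114, 121 and 122 CPM under IWR-1. The IWR-1 libraries lay below all DMSO libraries, and those of XAV939 overlapped them. Yap1 fell by 0.36 on the log2 scale with IWR-1 (SE 0.09, adjusted p = 0.00962), and XAV939 gave -0.14 (95% interval -0.34 to 0.06, adjusted p = 0.322). Without IWR-1 replicate 1 the value was -0.34 (adjusted p = 0.0504).

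Wwtr1 showed another order. It was at 144, 156 and 145 CPM in siCtrl and 165, 194 and 169 CPM in siTnks/2, where all treated libraries were the higher ones. It was at 151, 137 and 178 CPM in DMSO, 101, 111 and 121 CPM under XAV939, and 124, 137 and 142 CPM under IWR-1. All XAV939 libraries were below DMSO, and those of IWR-1 overlapped it. The log2 fold change was 0.25 for siTnks/2 (SE 0.08, adjusted p = 0.0706), -0.49 with XAV939 (SE 0.12, adjusted p = 0.0178) and -0.21 with IWR-1 (SE 0.12, adjusted p = 0.194). The replicate block gave 0.24 with knockdown (adjusted p = 0.0153) and DESeq2 0.25 (adjusted p = 0.0462). The XAV939 call was lost without DMSO replicate 1 (-0.51, adjusted p = 0.0522) or XAV939 replicate 1 (-0.42, adjusted p = 0.0716). The effects themselves differed: knockdown minus XAV939 was 0.75 for Wwtr1 (SE 0.16, adjusted p = 0.00665), among 13.5% of all 14271 genes called in that contrast. In knockdown minus IWR-1, where 24.4% of genes were called, it was 0.42 for Yap1 (SE 0.11, adjusted p = 0.00996) and 0.47 for Wwtr1 (SE 0.16, adjusted p = 0.0392). That last call ended with no filter on low counts (0.47, adjusted p = 0.0516) and, at values from 0.36 to 0.51, without any one of siCtrl replicates 1, 2 and 3, siTnks/2 replicate 2, DMSO replicates 1 and 3, and IWR-1 replicates 1 and 2.

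Of the TEAD factors, which provide the DNA contact, Tead3 fell in all 3 comparisons. It was at 19.1, 23.4 and 18.5 CPM in siCtrl and 13.3, 13.5 and 13.6 CPM in siTnks/2. It was at 25.7, 24.3 and 21.97 CPM in DMSO, 16.03, 17.8 and 16.4 CPM under XAV939, and 11.1, 13.3 and 11.9 CPM under IWR-1. No treated group overlapped its control. The log2 fold change was -0.58 for siTnks/2 (SE 0.11, adjusted p = 0.0152), -0.52 with XAV939 (SE 0.11, adjusted p = 0.0101) and -0.98 with IWR-1 (SE 0.11, adjusted p = 7.97e-05). The knockdown call was lost without siCtrl replicate 1 (-0.62, adjusted p = 0.054) or siTnks/2 replicate 1 (-0.58, adjusted p = 0.0614), and the XAV939 call without DMSO replicate 1 (-0.47, adjusted p = 0.0535).

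Tead1 had the highest mean level of the family per length of transcript in every group but XAV939, where it was at 5.40 ± 0.776 CPM/kb and Tead2 at 5.59 ± 1.04 CPM/kb (SD, n = 3), a gap within their spread. Tead1 was below control on average under each treatment, though its IWR-1 libraries overlapped those of DMSO. It was at 150, 135 and 147 CPM in siCtrl and 116, 73.9 and 126 CPM in siTnks/2. It was at 101, 89.5 and 147 CPM in DMSO, 70.6, 64.4 and 84.9 CPM under XAV939, and 71.9, 74.7 and 92.1 CPM under IWR-1. Replicate 2 of siTnks/2 was low and replicate 3 of DMSO high. The log2 fold change was -0.45 for siTnks/2 (SE 0.18, adjusted p = 0.133), -0.62 with XAV939 (SE 0.18, adjusted p = 0.0426) and -0.50 with IWR-1 (SE 0.18, adjusted p = 0.0555). The XAV939 call was lost in the fit of these 2 groups alone (-0.63, adjusted p = 0.0723) and without any one of DMSO replicate 1 (-0.69), DMSO replicate 3 (-0.39), XAV939 replicate 1 (-0.59), XAV939 replicate 2 (-0.53), IWR-1 replicate 1 (-0.64) or IWR-1 replicate 2 (-0.62). Conversely, the replicate block called Tead1 with knockdown (-0.48, adjusted p = 0.0325) and IWR-1 (-0.48, adjusted p = 0.00146), and without siTnks/2 replicate 2 the knockdown value was -0.25 (adjusted p = 0.0458). With IWR-1 it was called by DESeq2 (-0.51, adjusted p = 0.0332), with no filter on low counts (-0.51, adjusted p = 0.0428), and without DMSO replicate 2 (-0.64, adjusted p = 0.021) or IWR-1 replicate 3 (-0.63, adjusted p = 0.0413).

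Tead2, a TEAD gene best known from the early embryo, and Tead4, known from trophectoderm and skeletal muscle, moved in opposite directions with IWR-1. Tead2 was at 28.8, 27.3 and 18.7 CPM in DMSO, 32.5, 24.2 and 23.6 CPM under XAV939, and 13.1, 11.01 and 12.3 CPM under IWR-1, the last below all others. It fell by 1.03 on the log2 scale with IWR-1 (SE 0.18, adjusted p = 0.0012) and was at 0.10 with XAV939 (95% interval -0.29 to 0.50, adjusted p = 0.722). In the knockdown set it was at 17.0, 12.3 and 14.4 CPM in siCtrl and 14.9, 8.34 and 15.7 CPM in siTnks/2 (log2 fold change -0.16, 95% interval -0.74 to 0.42, adjusted p = 0.673). The knockdown groups overlapped widely.

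Tead4 was at 4.42, 3.11 and 8.49 CPM in DMSO, 4.02, 5.44 and 6.39 CPM under XAV939, and 9.07, 9.89 and 14.1 CPM under IWR-1. The lowest IWR-1 library was just above the highest DMSO library, replicate 3. Tead4 rose with IWR-1 (log2 fold change 1.04, SE 0.33, adjusted p = 0.0285) and was at -0.02 with XAV939 (95% interval -0.75 to 0.72, adjusted p = 0.981). The IWR-1 call was lost without DMSO replicate 1 (0.92, adjusted p = 0.103), DMSO replicate 2 (0.77, adjusted p = 0.0769), IWR-1 replicate 2 (1.12, adjusted p = 0.051) or IWR-1 replicate 3 (0.81, adjusted p = 0.113), and without DMSO replicate 3 the value was 1.53. With knockdown Tead4 was at 16.9, 17.6 and 21.9 CPM against 12.7, 10.2 and 17.8 CPM, groups that overlapped (-0.47, SE 0.21, adjusted p = 0.162). The replicate block gave -0.49 there (adjusted p = 0.0228), and leaving out siTnks/2 replicate 3 gave -0.71 (adjusted p = 0.0374). Knockdown minus IWR-1 was -1.50 for Tead4 (SE 0.44, adjusted p = 0.0211), a call that ended without siCtrl replicate 3 (-1.37), siTnks/2 replicate 1 (-1.43), DMSO replicate 1 (-1.36) or IWR-1 replicate 3 (-1.28).

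**Figure D2:**
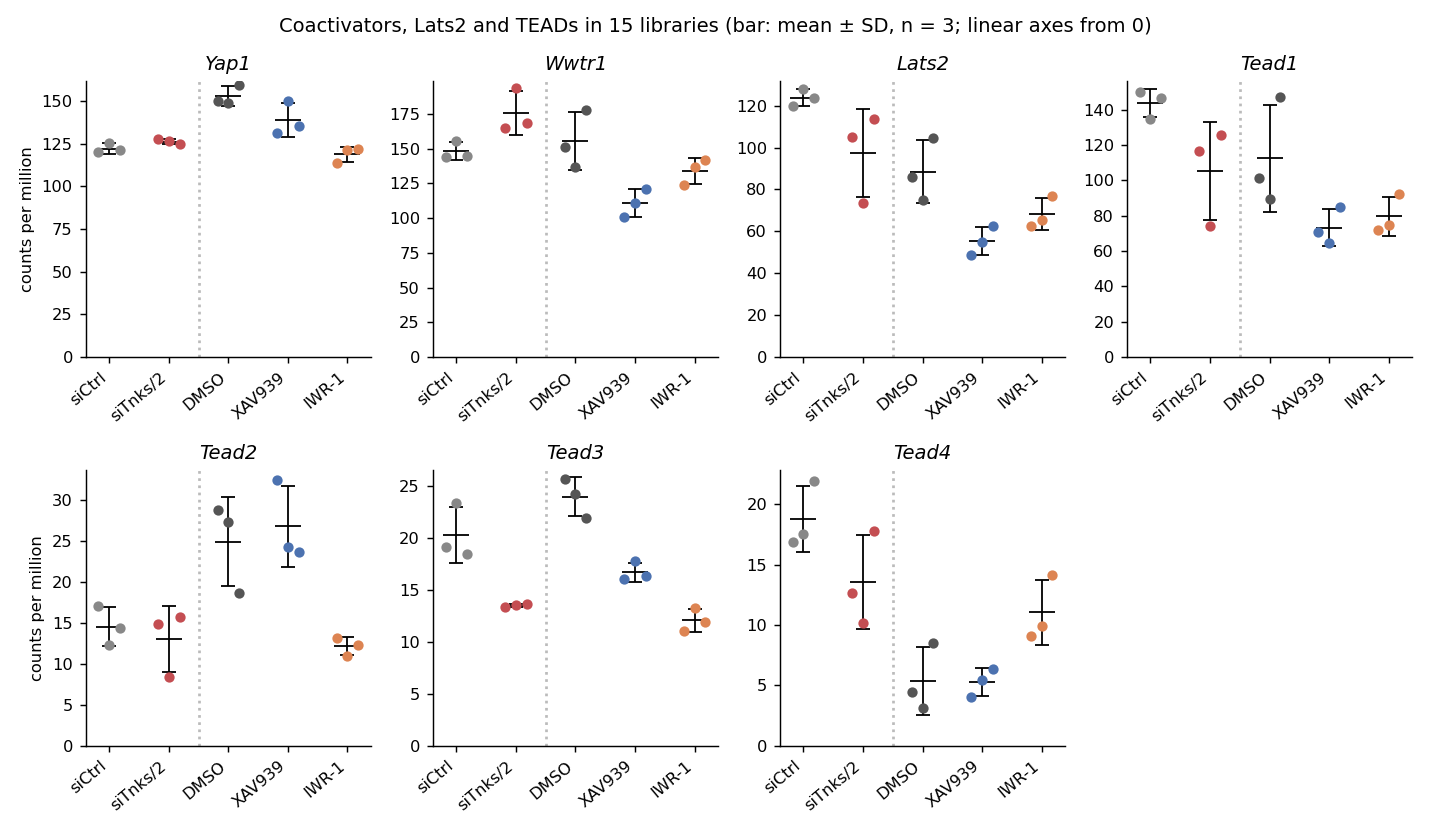
Level of Yap1, Wwtr1, Lats2 and the 4 TEAD genes in CPM (vertical axes, linear from 0) in each of 15 libraries, 1 point per library, with mean ± SD (n = 3). Tead3 lies below its control in each treated group, Tead2 sits at 11.01 to 13.1 CPM under IWR-1, and DMSO replicate 3 (the rightmost point of its group) stands apart for Tead1, Tead2 and Tead4.

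Counted over the 10 genes, 3 were called with knockdown, all lower (Tead3, Ccn1 and Ankrd1), where 18% of 13672 genes were called in either direction, 7.61% lower and 10.4% higher. With XAV939, 7 were called, all lower (Wwtr1, Tead1, Tead3, Ccn1, Ccn2, Ankrd1 and Lats2), against 17.4% of 13873 genes in either direction, 9.85% lower and 7.57% higher. With IWR-1, 5 were called lower (Yap1, Tead2, Tead3, Ccn1 and Ankrd1) and 1 higher (Tead4), against 36.4% of genes in either direction, 20.2% lower and 16.2% higher. The median log2 fold change of the 10 genes was -0.46 for siTnks/2, -0.57 for XAV939 and -0.44 with IWR-1, where the median of all genes tested was -0.00, 0.02 and 0.01. Treated libraries lay wholly below controls for 6 genes with knockdown (22.2% of all genes), 7 with XAV939 (16.8%) and 5 with IWR-1 (26.4%), and wholly above for Wwtr1 with knockdown (21.6%), for 0 genes with XAV939 (16.4%) and for Tead4 with IWR-1 (24.7%). XAV939 and IWR-1 were set against the same DMSO libraries, so these 2 comparisons are not independent. With the replicate block the members called numbered 7 for siTnks/2, 7 for XAV939 and 8 for IWR-1, against 34.6%, 33.4% and 47.5% of all genes under the same fit. The knockdown count went to 1 without siTnks/2 replicate 1, with Ccn1 left, against 5.78% of all genes in the same fit. It was 3 without siTnks/2 replicate 2, the library with endothelial transcripts, with Tead1 called in place of Ankrd1, against 20.8% of all genes. With XAV939 the count went to 4 without DMSO replicate 1, against 9.45% of all genes.

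**Figure D3:**
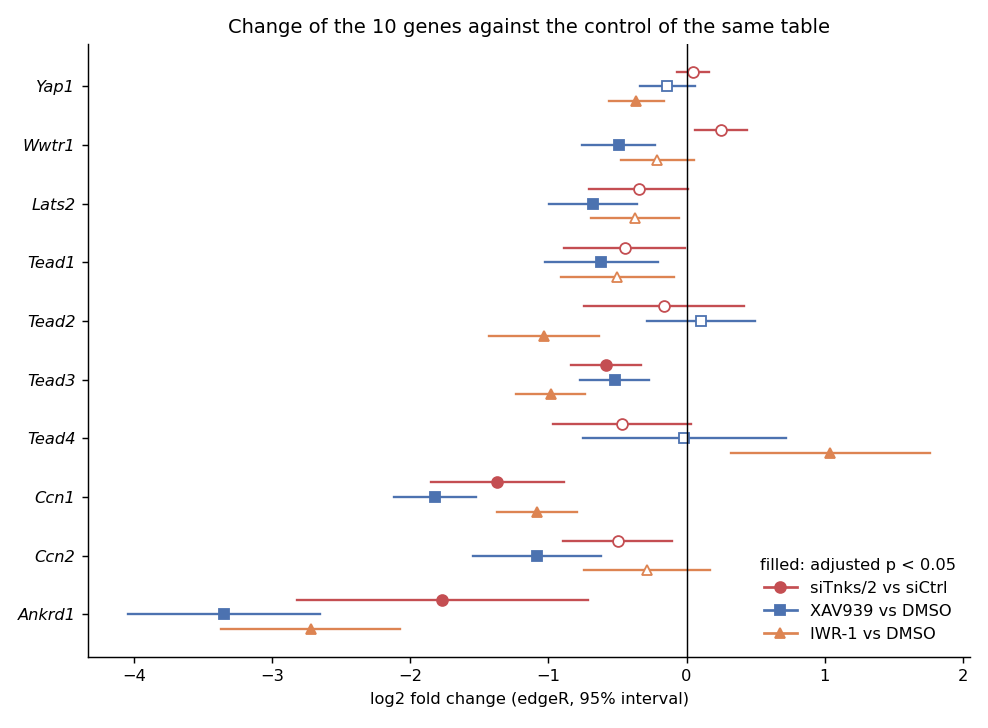
Log2 fold change (horizontal axis) of each of the 10 genes with its 95% interval from edgeR, for siTnks/2 against siCtrl (circles), XAV939 against DMSO (squares) and IWR-1 against DMSO (triangles); filled symbols have an adjusted p under 0.05. Ccn1, Ankrd1 and Tead3 are filled and left of 0 in all 3 comparisons, and Tead4 with IWR-1 is the filled symbol to the right, at 1.04.

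Given at the same dose for the same time, the inhibitors differed from each other in 5 of the 10 genes, against 17.6% of 13873 genes (7.37% higher and 10.2% lower with IWR-1). Ccn1 was higher with IWR-1 than with XAV939 by 0.74 on the log2 scale (SE 0.13, adjusted p = 0.00345), and Ccn2 by 0.79 (SE 0.21, adjusted p = 0.0244). Tead4 was higher by 1.06 (SE 0.33, adjusted p = 0.0483), Tead2 was lower at -1.14 (SE 0.18, adjusted p = 0.00199) and Tead3 lower at -0.46 (SE 0.11, adjusted p = 0.0174). For Ankrd1 the difference was 0.63 (95% interval -0.15 to 1.40, adjusted p = 0.258), for Lats2 0.30 (-0.02 to 0.62), for Wwtr1 0.28 (0.01 to 0.54), for Yap1 -0.22 (-0.42 to -0.02) and for Tead1 0.12 (-0.29 to 0.53), none called over all genes. The Tead4 call ended with size factors of the RLE kind (1.06, adjusted p = 0.0502), with at least 10 counts required in every library (1.06, adjusted p = 0.0515) and in 7 of 9 fits that left out a library. Those 7 gave 0.84 to 1.22 and left out DMSO replicate 1 or any library of XAV939 or IWR-1. The Ccn2 call ended without IWR-1 replicate 1 (0.82), IWR-1 replicate 2 (0.86), IWR-1 replicate 3 (0.71) or XAV939 replicate 1 (0.59), and the Tead3 call without IWR-1 replicate 1 (-0.40) or IWR-1 replicate 3 (-0.45). With the replicate block Wwtr1 (0.28, adjusted p = 0.0357) and Lats2 (0.30, adjusted p = 0.0269) were called as well.

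Between genes, levels are compared per kilobase of exon (CPM/kb), since longer transcripts give more reads. In DMSO the order was Ccn2 at 132 ± 26.7 CPM/kb (SD, n = 3), Ccn1 at 120 ± 19.6, Wwtr1 at 32.5 ± 4.36, Yap1 at 16.5 ± 0.633, Lats2 at 12.7 ± 2.15 and Tead1 at 8.29 ± 2.24. Then came Tead2 at 5.20 ± 1.14, Tead3 at 3.57 ± 0.279, Tead4 at 1.48 ± 0.779 and Ankrd1 at 0.597 ± 0.0973. Ccn2 and Ccn1 differed by less than their spread in DMSO. In siCtrl the order was Ccn2 (476 ± 101), Ccn1 (304 ± 90.3), Wwtr1 (31.0 ± 1.36), Lats2 (17.8 ± 0.576), Yap1 (13.2 ± 0.321), Tead1 (10.6 ± 0.587), Tead4 (5.22 ± 0.757), Tead2 (3.04 ± 0.496), Tead3 (3.02 ± 0.396) and Ankrd1 (0.834 ± 0.370), in which Tead2 and Tead3 were within their spread. The target genes thus spanned both ends of the range, with Ankrd1 last in both control groups.

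Summed per length, the 4 TEAD transcripts stood at 21.9 ± 0.928 CPM/kb in siCtrl and 16.3 ± 3.84 in siTnks/2 (SD, n = 3), and at 18.6 ± 1.80 in DMSO, 14.95 ± 0.857 with XAV939 and 13.3 ± 1.57 with IWR-1. Each treated group lay below its control, and each exact two-sided permutation test gave p = 0.1, the smallest that 3 libraries against 3 allow (adjusted p = 0.15 over 9 such tests). Tead1 made up 44.3% ± 7.75 of the sum in DMSO, 36.1% ± 3.96 with XAV939 and 44.1% ± 0.844 with IWR-1. The Tead4 share was 7.79% ± 3.37 in DMSO, 9.85% ± 2.32 with XAV939 and 22.9% ± 2.85 with IWR-1 (exact permutation test against DMSO, p = 0.1, adjusted p = 0.15). Tead2 made up 28.5% ± 8.16 in DMSO, 37.4% ± 5.97 with XAV939 and 19.3% ± 2.82 with IWR-1. With siRNA the Tead4 share was 23.8% ± 2.86 in siCtrl and 23.1% ± 2.47 in siTnks/2 (exact permutation test, p = 0.8, adjusted p = 0.8). The ratio of Wwtr1 to Yap1 per length was 2.35 ± 0.0460 in siCtrl and 2.70 ± 0.247 in siTnks/2, and 1.97 ± 0.190 in DMSO, 1.55 ± 0.157 with XAV939 and 2.18 ± 0.0766 with IWR-1. It lay wholly above control with knockdown and wholly below with XAV939 (exact permutation test, p = 0.1 for each), whereas IWR-1 gave p = 0.2.

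**Figure D4:**
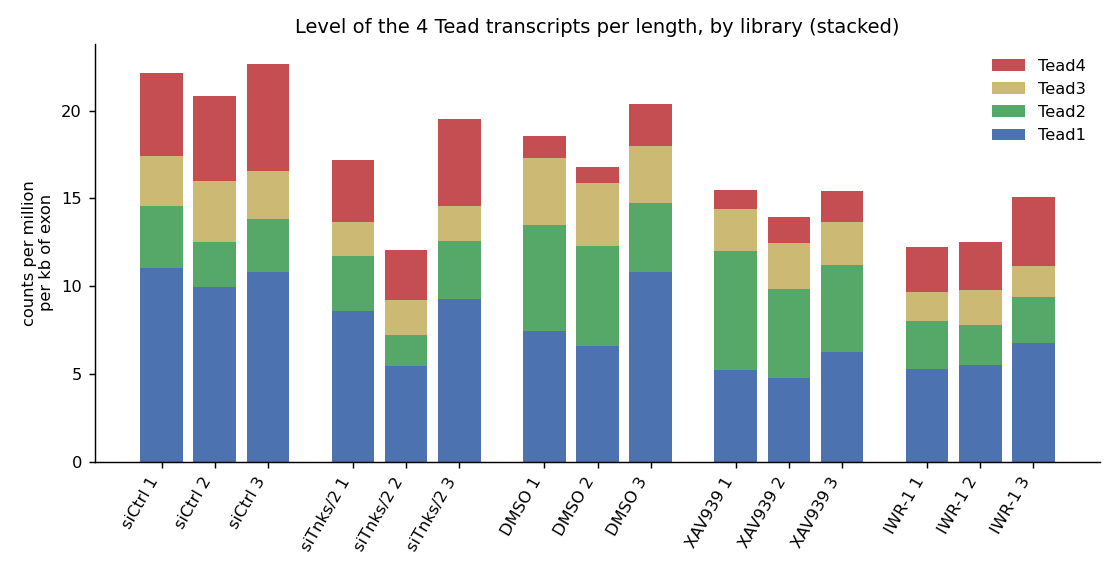
Level of the 4 TEAD transcripts per kilobase of exon (CPM/kb, linear vertical axis from 0), stacked, for each of 15 libraries. The Tead4 segment is a larger part of the 3 IWR-1 bars (22.9% on average) than of the DMSO bars (7.79%), and the whole bar is lower in each treated group than in its control.

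Angiomotins, which hold YAP and TAZ outside the nucleus and are known tankyrase substrates, did not move as one at the transcript level. Amotl2, itself a YAP/TAZ target, was at 379, 411 and 394 CPM in siCtrl and 232, 159 and 250 CPM in siTnks/2, and at 274, 233 and 271 CPM in DMSO, 127, 121 and 127 CPM under XAV939 and 136, 135 and 151 CPM under IWR-1. It fell by 0.88 on the log2 scale with knockdown (adjusted p = 0.0151), 1.06 with XAV939 (adjusted p = 0.000119) and 0.88 with IWR-1 (adjusted p = 7.00e-05). Amot was at -0.82 with knockdown (adjusted p = 0.0595), -0.61 with XAV939 (adjusted p = 0.0546) and -0.06 with IWR-1. Amotl1 was at 0.00, 0.16 and 0.17, with no call.

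In the list of 15 Hippo kinases and their upstream partners, 4 were called higher and 1 lower with knockdown, 0 and 1 with XAV939, and 0 and 2 with IWR-1, out of 15 tested each time. Over all genes 18%, 17.4% and 36.4% were called in either direction, so the list's share lay above that of all genes for knockdown and below it for both inhibitors. Map4k4 (log2 fold change 0.33, adjusted p = 0.0113) and Tnik (0.97, adjusted p = 0.0118), kinases of the MAP4K family that can activate LATS, and Lats1 (0.27, adjusted p = 0.0284) rose with knockdown, with Tnik at 2.21, 2.33 and 1.84 CPM in siCtrl and 4.41, 4.53 and 3.72 CPM in siTnks/2. Sav1, the scaffold of the MST kinases, fell under all 3 treatments, by 0.31 with knockdown (adjusted p = 0.0352), 0.42 with XAV939 (adjusted p = 0.00934) and 0.64 with IWR-1 (adjusted p = 0.000294). Mink1, another MAP4K kinase, was at 0.28 with knockdown (adjusted p = 0.0333) and -0.37 with IWR-1 (adjusted p = 0.0309). The difference of these effects, 0.66, passed the test (SE 0.15, adjusted p = 0.00511). The list's median log2 fold change was 0.06, -0.21 and -0.11 in the 3 comparisons. Values above and below 0 numbered 9 and 6 with knockdown, 1 and 14 with XAV939, and 6 and 9 with IWR-1. Over all genes tested they numbered 6811 and 6861, 7192 and 6681, and 7010 and 6863. Sav1 overlaps the coding gene Atl1 in the annotation.

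Among 10 tested of 11 other regulators, the counts called higher and lower were 2 and 4 with knockdown (Tnks and Tnks2 among the lower), 0 and 4 with XAV939, and 1 and 2 with IWR-1, and Vgll2 was too low to test. Against the same shares of all genes (18%, 17.4% and 36.4%), the 3 of 10 called with IWR-1 were no more than the background. Vgll3, a TEAD cofactor of the vestigial-like family, was at 121, 114 and 123 CPM in siCtrl and 57.4, 19.8 and 62.5 CPM in siTnks/2, and at 60.01, 45.1 and 56.4 CPM in DMSO, 22.8, 18.4 and 19.6 CPM under XAV939 and 24.6, 19.2 and 24.7 CPM under IWR-1. It fell by 1.36 (adjusted p = 0.0491), 1.40 (adjusted p = 0.0002) and 1.24 (adjusted p = 9.64e-05) on the log2 scale. The atypical cadherin Fat4 fell with XAV939 (-1.05, adjusted p = 0.00308) and IWR-1 (-1.17, adjusted p = 0.000531) and was at -0.88 with knockdown (adjusted p = 0.13). Its ligand Dchs1 rose with knockdown (0.68, adjusted p = 0.00809). Of the LIM proteins that bind and hold LATS, Limd1 rose with knockdown (0.44, adjusted p = 0.00715) and IWR-1 (0.50, adjusted p = 0.00081), while Ajuba fell with knockdown (-0.70, adjusted p = 0.024) and XAV939 (-0.51, adjusted p = 0.00651).

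A list of 18 other YAP/TAZ target genes, Amotl2 included, was tested whole. With knockdown 4 were called lower and 2 higher, with XAV939 8 lower and 0 higher, and with IWR-1 8 lower and 1 higher, with list medians of -0.27, -0.54 and -0.38. Over all genes 7.61% were called lower and 10.4% higher with knockdown, 9.85% and 7.57% under XAV939, and 20.2% and 16.2% under IWR-1. F3, the tissue factor that starts coagulation, fell by 1.22 with knockdown (adjusted p = 0.0125), 1.92 with XAV939 (adjusted p = 0.000264) and 1.88 with IWR-1 (adjusted p = 6.95e-05). Axl, a receptor tyrosine kinase, fell by 1.23 (adjusted p = 0.0221), 0.58 (adjusted p = 0.00519) and 1.54 (adjusted p = 5.30e-06), and Dock5, a Rac exchange factor, by 0.74 (adjusted p = 0.0162), 1.23 (adjusted p = 0.000756) and 1.09 (adjusted p = 0.000408). These 3 genes and Amotl2 were the members of the list called lower with knockdown.

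For Igfbp3, Nt5e and Gadd45a, also on that list, the knockdown effect differed from that of both inhibitors. Igfbp3, which binds insulin-like growth factors, was at 161, 156 and 141 CPM in DMSO, 69.8, 48.9 and 72.03 CPM under XAV939 and 32.1, 24.4 and 30.1 CPM under IWR-1, but at 20.4, 19.9 and 22.8 CPM in siCtrl and 16.1, 25.8 and 24.0 CPM in siTnks/2. It fell by 1.26 with XAV939 (adjusted p = 0.000509) and 2.40 with IWR-1 (adjusted p = 3.38e-06), and the knockdown effect of 0.06 differed from both (1.34, adjusted p = 0.00291, and 2.47, adjusted p = 1.09e-05). Nt5e, the ecto-5'-nucleotidase CD73, rose by 0.53 with knockdown (adjusted p = 0.0392) and fell by 0.65 with XAV939 (adjusted p = 0.0207) and 1.08 with IWR-1 (adjusted p = 0.000497), and the differences of 1.20 and 1.62 were called (adjusted p = 0.00446 and 0.000201). Gadd45a, a growth-arrest and stress gene, rose with knockdown (0.92, adjusted p = 0.00847) and was at -0.03 with XAV939 and -0.25 with IWR-1, again with both differences called (adjusted p = 0.00593 and 0.000601). Fjx1, the homologue of the fly Golgi kinase four-jointed, rose with IWR-1 (1.67, adjusted p = 0.000156), from 1.89, 2.62 and 1.29 CPM to 6.22, 6.32 and 6.41 CPM. It was also above control at 0.35 with knockdown (adjusted p = 0.11) and 0.68 with XAV939 (adjusted p = 0.0533), where all treated libraries were above all controls. IWR-1 exceeded XAV939 by 0.99 for Fjx1 (adjusted p = 0.00834), and knockdown minus IWR-1 was -1.31 (adjusted p = 0.00203).

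**Figure D5:**
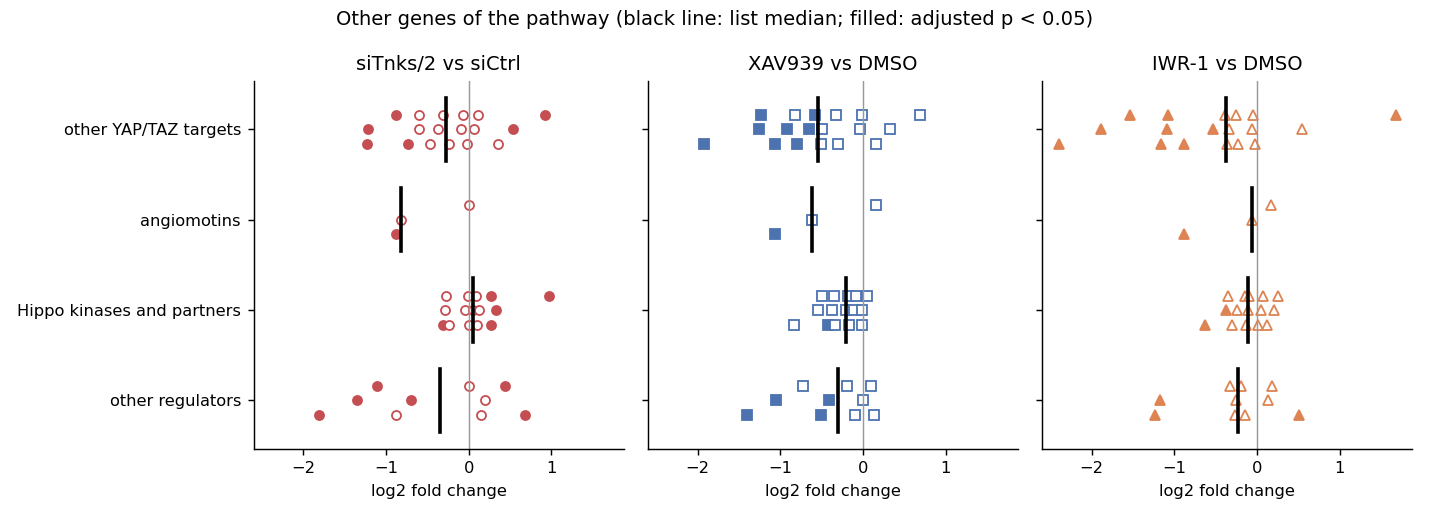
Log2 fold change (horizontal axis) of each tested gene of 4 pathway lists in the 3 comparisons with a control, 1 symbol per gene, filled where the adjusted p is under 0.05, with a black line at the median of the list. The other YAP/TAZ targets have medians of -0.27, -0.54 and -0.38. The Hippo kinases and partners have medians of 0.06, -0.21 and -0.11, with 14 of 15 below 0 under XAV939.

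Genes whose pattern over the 15 libraries came closest to the 3 non-kinase targets were sought among 13341 genes by the root mean square difference of log2 CPM from the control mean of the set, a description with no test. On the same scale Ccn1 itself lay 1.13 from its control mean, Ccn2 0.598 and Ankrd1 1.28. Closest to Ccn1 were Pcgf5, a Polycomb-group protein, at 0.341, Tlcd3a at 0.350 and Rnf39 at 0.369. For Ccn2 they were the transcription factor Klf4 at 0.287, the uridine-cytidine kinase Uck2 at 0.287 and Pxdc1 at 0.301. For Ankrd1 they were the chemokine Cxcl10 at 0.307, F3 at 0.309 and Ddah1, which breaks down methylated arginines, at 0.362. This distance adds 0.5 CPM to each level, and Ankrd1 averaged 0.114 CPM with XAV939 and 0.209 CPM with IWR-1. Its fitted changes of -3.35 and -2.72 are therefore shrunk in the distance. How much of the nearness of these genes comes from that was not tested. Ddah1 was at a log2 fold change of -1.32 for siTnks/2, -1.89 with XAV939 and -2.19 with IWR-1, and Cxcl10 at -1.51, -2.12 and -1.54.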

How the data were processed

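RNA was measured by stranded, poly(A)-selected sequencing of 15 libraries (5 groups of 3). Per the labels and the study's methods, the authors trimmed reads with Trimmomatic 0.32, mapped them to mm10 with TopHat2 2.0.13 and counted reads per gene with HTSeq 0.6.1p1. The deposited values are raw counts per gene identifier in 2 tables, one per set, and the annotation and strand setting used for counting are not given in the sources used here. Of 24134 identifiers, 24051 matched a symbol.

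The members and gene lists were chosen with earlier results of these data known. Counts were analysed per table in R 4.3.3 with edgeR 4.0.16 (TMM scaling, filterByExpr, quasi-likelihood test, prior count 2), all 9 libraries of the inhibitor set in 1 fit, and differences between knockdown and inhibitor effects in 1 fit over 15 libraries. Fold changes use that prior count and understate changes of genes with few counts. P-values were adjusted over all genes tested, 13672, 13873 and 14271 in the 3 fits. Besides the 10 genes, angiomotins, Tnks and Tnks2, genes were named by rule: up to 3 per list and direction with the smallest adjusted p under 0.05 in each comparison with a control, and the 3 nearest patterns (pseudocount 0.5 CPM). Marker genes were named after their values were seen. DESeq2 1.42.0, other scalings and filters, a replicate block, fits of 2 groups, leaving out each library and, added after seeing the data, a smaller prior count were alternatives. The test was checked on simulated counts with independent libraries, the same spread setting for every gene and large changes. That check does not give its error rate at the spread and pairing of these libraries. Same-numbered libraries deviated from their group means together in all 3 pairs of the siRNA set (r = 0.469 to 0.545) and all 9 of the inhibitor set (r = 0.149 to 0.648). Pairs with different numbers were at -0.451 to 0.122 in the siRNA set and at -0.602 to 0.432 in the inhibitor set, where the ranges overlap. There DMSO replicate 2 was closer to replicate 1 of IWR-1 and XAV939 (0.432 and 0.396) than to replicate 2 (0.301 and 0.149). Replicate numbers from the labels served as the block, and blocked values are given where they change a call on the 10 genes. No 2 replicates agreed within sampling noise. Upstream sequence came from a RefSeq table (GRCm38.p6), and exon lengths from GENCODE M21.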

Additional observations from a re-analysis of the deposited data

Results flagged for a closer look

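Of the 10 genes, 3 showed an effect of tankyrase knockdown that differed from that of an inhibitor by a test of the difference itself, in 4 contrasts. That is 1 of 10 against 13.5% of all genes for XAV939 and 3 of 10 against 24.4% for IWR-1, so the counts lie near the background and say nothing particular about these genes. For Wwtr1, knockdown minus XAV939 was 0.75 on the log2 scale (SE 0.16, adjusted p = 0.00665), with all siTnks/2 libraries above siCtrl and all XAV939 libraries below DMSO, and it was called under every alternative run. Knockdown minus IWR-1 was 0.47 for Wwtr1 (SE 0.16, adjusted p = 0.0392) and 0.42 for Yap1 (SE 0.11, adjusted p = 0.00996), the latter called under every alternative run and the former lost, at 0.36 to 0.51, without any one of siCtrl replicates 1, 2 and 3, siTnks/2 replicate 2, DMSO replicates 1 and 3, and IWR-1 replicates 1 and 2. For Tead4, knockdown minus IWR-1 was -1.50 (SE 0.44, adjusted p = 0.0211), and the call ended without siCtrl replicate 3 (-1.37), siTnks/2 replicate 1 (-1.43), DMSO replicate 1 (-1.36) or IWR-1 replicate 3 (-1.28). The replicate block also called Ccn2 (0.62, adjusted p = 0.0258) and Ankrd1 (1.60, adjusted p = 0.0171) in knockdown minus XAV939, where without it they stood at 0.59 (adjusted p = 0.191) and 1.57 (adjusted p = 0.0577). In knockdown minus IWR-1 it added Tead2 (0.83, adjusted p = 0.00564, against 0.88, adjusted p = 0.0539) and Tead3 (0.42, adjusted p = 0.0337, against 0.41, adjusted p = 0.0689). The share of all genes called under the block was 28.2% and 36.3%. The siRNA and inhibitor sets differ in transfection, solvent and possibly duration as well as in the agent, and these cannot be told apart. Groups of 3 libraries were not tested for single libraries standing apart.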

How the results depend on the processing

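Over single genes, 575 alternative values kept their direction and side of the threshold, 36 lost and 18 gained a call, and 7 changed sign, none of them called. Those were Tead4 with XAV939 (-0.016 as reported, 0.037 with upper-quartile scaling, 0.038 with the replicate block, and -0.29 to 0.47 over the fits without 1 library, positive without DMSO replicate 3 or XAV939 replicate 1), and Tead2 with knockdown (-0.32 to 0.071 without 1 library, positive without siTnks/2 replicate 2) and with XAV939 (-0.077 to 0.22, negative without DMSO replicate 3 or XAV939 replicate 1). DESeq2 called 5 of the 10 genes with knockdown, 2 in knockdown minus XAV939 and 5 in knockdown minus IWR-1, and the replicate block 7, 3 and 5, against 3, 1 and 3. Over all genes DESeq2 called 23.2%, 17% and 26.9% and the block 34.6%, 28.2% and 36.3%, against 18%, 13.5% and 24.4%. Leaving out 1 library gave 1 to 4 called with knockdown, 4 to 7 with XAV939, 5 to 7 with IWR-1, 2 to 5 for IWR-1 against XAV939, 1 to 2 for knockdown minus XAV939 and 1 to 4 for knockdown minus IWR-1. Those fits called 4.4% to 20.8% of all genes with knockdown, 9.45% to 17.7% with XAV939 and 26.9% to 40.3% with IWR-1. The shares were 9.57% to 21.7% for IWR-1 against XAV939, 8.6% to 15% for knockdown minus XAV939 and 18.9% to 27.3% for knockdown minus IWR-1. The cause of these moves was not tested.

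Over all genes, the replicate block called 4727 with knockdown against 2459, 4630 with XAV939 against 2416, 4258 for IWR-1 against XAV939 against 2442, and 4018 for knockdown minus XAV939 against 1922. XAV939 and DMSO fitted alone gave 1569. Leaving out a library took the knockdown count to as few as 608 (without siCtrl replicate 1), 678 (siCtrl replicate 3), 800 (siTnks/2 replicate 1) and 930 (siCtrl replicate 2), and the XAV939 count to 1322 (without DMSO replicate 1). Without IWR-1 replicate 1 or 2, IWR-1 against XAV939 gave 1419 or 1343, and without siCtrl replicate 1 or 3, knockdown minus XAV939 gave 1241 or 1259. With upper-quartile scaling 53.3% of XAV939 calls were higher against 43.5%, and 47.3% against 59.9% for knockdown minus XAV939. A smaller prior count, tried after seeing the data, gave -1.86, -3.87 and -3.01 for Ankrd1. With at least 10 counts required in every library Ankrd1 was not tested in the inhibitor set. Its counts of 2 to 10 per inhibited library limit the precision of its fold change.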
